A study of Homo sapiens with 6 samples.

Results

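The 10 genes described here break down heme and move or store its iron: HMOX1, HMOX2, BLVRA, BLVRB, FTH1, FTL, NCOA4, TFRC, SLC11A2 and SLC40A1. They were taken by symbol from a table of 17170 genes, and all 10 had a row. The set was selected on its TPM in these same control libraries, so levels are a description and carry no test. The cells are NCI-H69, a line established from a small cell lung cancer and grown in RPMI-1640 with serum. The 3 control samples received a guide RNA without a target. They are the counterpart of stable CRISPR/Cas9 knockouts aimed at the MIR7-3HG open reading frame, which encodes SCRMP. The 3 knockout samples are not analysed here, because none of their 3 stated column names was found in the table. The labels do not say whether the control cells were a clone or how far back the replicate cultures were separate, so each SD (n = 3) covers only the spread between these libraries. The 3 libraries held 20941185, 22309228 and 22477571 estimated reads.

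Heme oxygenase opens the heme ring and releases iron, carbon monoxide and biliverdin, and biliverdin reductase turns biliverdin into bilirubin. Iron enters most cells through the transferrin receptor, leaves the endosome through a metal transporter, is stored inside ferritin shells and leaves the cell through ferroportin. When iron is scarce, iron regulatory proteins bind a hairpin in target messages: bound before the coding sequence it blocks translation, and bound after it, in the transferrin receptor message, it protects the message from decay. Message levels of ferritin and ferroportin therefore do not read out this control of their translation.

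The hairpins are shown because they set the FTL and SLC40A1 messages apart from the TFRC message. The core searched, on the message strand only, was a C, a run of 5 bases, the loop CAGTGN and another run of 5 bases, with both runs fully paired and G-T pairs allowed. RefSeq's promoter table (GRCh38.p14) matched 8 of the 10 members and not FTH1 or HMOX1, and the search was made in GENCODE transcripts of those 8. The loop is in capitals, each sequence is written 5′ to 3′, and positions are on GRCh38.
FTL, before the coding sequence, chr19:48965341-48965357, plus strand: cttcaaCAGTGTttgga
SLC40A1, before the coding sequence, chr2:189580667-189580683, minus strand: cagctaCAGTGTtagct
TFRC, after the coding sequence, chr3:196050985-196051001, minus strand: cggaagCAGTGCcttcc
TFRC, after the coding sequence, chr3:196050581-196050597, minus strand: cgggagCAGTGTcttcc
TFRC, after the coding sequence, chr3:196050516-196050532, minus strand: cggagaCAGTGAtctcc
TFRC, after the coding sequence, chr3:196050469-196050485, minus strand: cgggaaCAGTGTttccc
FTL and SLC40A1 thus held the core ahead of the coding sequence, and TFRC held 4 copies behind it. These messages are known to carry the hairpin, so the matches describe them and are no test. FTH1 was left out of this search by member, so for storage only FTL is covered. The counts over all genes that follow give no result for a gene by name. Over the longest coding transcript of 19544 genes, 0.113% had such a core before the coding sequence, 0.609% had at least 1 after it and 0.0256% had at least 2. Those regions differ in length between genes. In windows of equal length, the 50 bases after each of 35116 RefSeq starts, 0.0228% held the core, and the window of FTL was among them. SLC11A2, whose transcripts are known to end in forms with and without such an element, had no match to these letters, and a gene-level table cannot separate those forms.

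Markers of cell types were read first, with a gene called detected at 1 TPM or more in each control library (TPM is a share of all transcripts, divided by length). Of 5 neuroendocrine markers 1 was detected, NCAM1 (25.7 TPM ± 3.66), and the defining CHGA, SYP, INSM1 and DLL3 were each below 1 TPM, which goes against what NCI-H69 is known for. All 3 mesenchymal markers exceeded 100 TPM, led by VIM (4542 TPM ± 87.8), and 0 of 3 epithelial markers was detected. Macrophages and red cell precursors are known for heme turnover. Of 3 measured macrophage markers 1 was detected, CD68 (1.36 TPM ± 0.281), with a summed level of 1.25 to 1.92 TPM across libraries. Of 5 erythroid markers 1 was detected, HBA1, with HBB at 0.0433 TPM and KLF1 at 0.0167 TPM, and the list had a sum of 27.8 to 40.7 TPM.

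All 10 genes were detected, as were 66.5% of all genes in the table. At a minimum of 5 TPM it was 9 of the 10, against 52.6% of all genes. In bulk RNA, few cells with much message and many cells with little cannot be told apart. A mean above 100 TPM was reached by 6 of the 10, against 8.25% of all genes. FTH1, HMOX1 and FTL carried 97.2% of the TPM of the 10, and all 10 together held 2.46% ± 0.163 of each library. The highest member stood 5104-fold above the lowest. The median gene of the table had 6.87 TPM, and 9 of the 10 were above it, with SLC40A1 the exception.

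**Figure D1:**
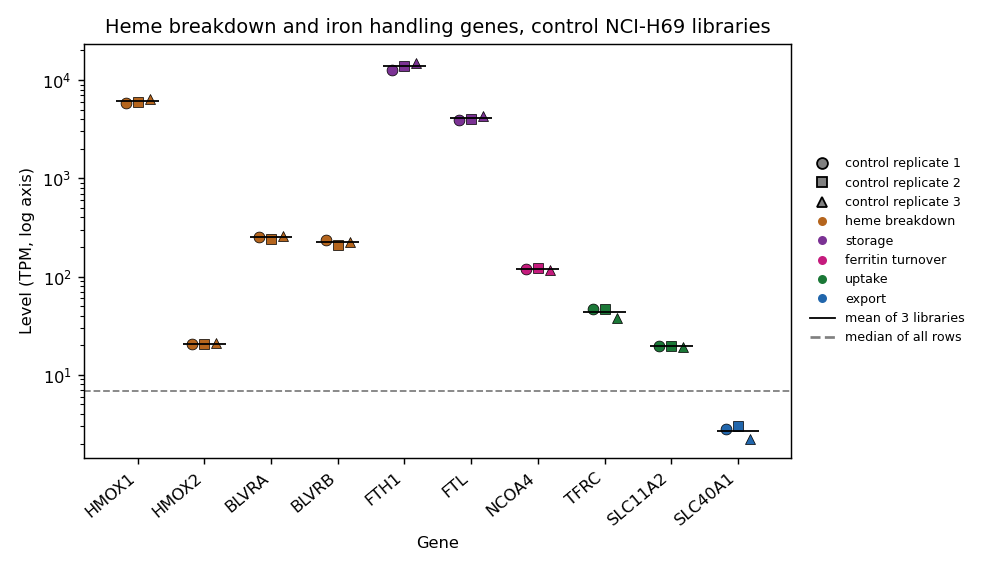
Level of each gene in TPM (log axis) in control replicates 1, 2 and 3 (circle, square, triangle), coloured by role, with the mean of 3 libraries as a black bar and the median gene of the table as a dashed line. FTH1, HMOX1 and FTL lie far above the other members, and SLC40A1 alone lies below the dashed line.

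Of the 2 heme oxygenase genes, HMOX1 had nearly all of the message. HMOX1 encodes the inducible heme oxygenase (chromosome 22, 35381096 to 35394207). It had 5863, 5954 and 6341 TPM in replicates 1, 2 and 3, a mean of 6052 TPM ± 254. That placed it at rank 15 of 17170, between the ribosomal protein genes RPL26 (6127 TPM) and RPS24 (5859 TPM), the rows next to it in mean level. No library stood apart, since the highest was 1.08-fold above the lowest.

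HMOX2, the constitutive heme oxygenase (chromosome 16, 4474736 to 4510347), had 20.60, 20.61 and 20.89 TPM and ranked 5305. The 3 libraries were nearly equal, with a coefficient of variation of 0.795%, below the 5.12% that counting alone would give for its mean of reads. Within each library HMOX1 exceeded HMOX2 by 285-fold, 289-fold and 304-fold, a log2 ratio of 8.19 ± 0.05. In GENCODE, 6.01% of the HMOX2 exon bases lie opposite exons of NMRAL1 (3.21 TPM ± 0.519) on the other strand. The libraries kept the strand per the labels, and no source used here says whether the counting did.

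The reductases that act after the oxygenases were well above the median gene and close to each other. BLVRA, biliverdin reductase A (chromosome 7, 43758122 to 43807342), had 251.8, 241.5 and 257.6 TPM. BLVRB, the second reductase, which also reduces flavins (chromosome 19, 40447768 to 40465745), had 233.5, 209.5 and 225.1 TPM. The ranges did not overlap, and BLVRA was higher in all 3 libraries, but only by 1.13-fold ± 0.0408. HMOX1 exceeded BLVRA by 24.2-fold ± 0.782 and BLVRB by 27.2-fold ± 1.85, so the first step of the pathway had far more message than the second. Heme oxygenase draws its electrons from cytochrome P450 reductase, whose gene POR had 74.5 TPM ± 2.36.

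Storage genes had the most message of the roles. FTH1, the ferritin heavy chain that oxidises iron on entry (chromosome 11, 61964285 to 61967634), had 12561, 13798 and 14981 TPM, a mean of 13779.9 TPM ± 1210.2. It was rank 3 in every library, between RPS18 (15032 TPM) and RPL41 (11108 TPM) in mean level. Replicate 1 was the lowest, at -8.85% from the mean, and replicate 3 the highest, at 8.72% above it.

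FTL, the light chain that helps the mineral core form (chromosome 19, 48965309 to 48966879), had 3926, 3997 and 4278 TPM and ranked 39. FTH1 exceeded FTL by 3.20-fold, 3.45-fold and 3.50-fold within the libraries, a log2 ratio of 1.76 ± 0.07. Together both genes took 1.65%, 1.78% and 1.93% of the TPM of the 3 libraries. Of reads not divided by length their mean share was 1.11%, against 1.78% of TPM. HMOX1 lay between them in every library, and its ratio to FTL was 1.49, 1.49 and 1.48.

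Ferritin genes have many processed copies. GENCODE names 25 FTH1 and 16 FTL pseudogenes, and 0 of them have a row in the table. Of all 50-base windows of the longest coding transcript, 40.4% in FTH1 and 18.3% in FTL also occurred exactly in a transcript of another gene, all of them pseudogenes. The share was 5.51% for NCOA4 and 0.620% for HMOX1, and 0 for the other 6 members. In addition, 62.4% of the FTH1 exon bases lie opposite exons of BEST1 (12.5 TPM ± 1.21) on the other strand. No source used here says how reads with several matches were assigned, so the FTH1 to FTL ratio is uncertain to an extent that was not tested.

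**Figure D2:**
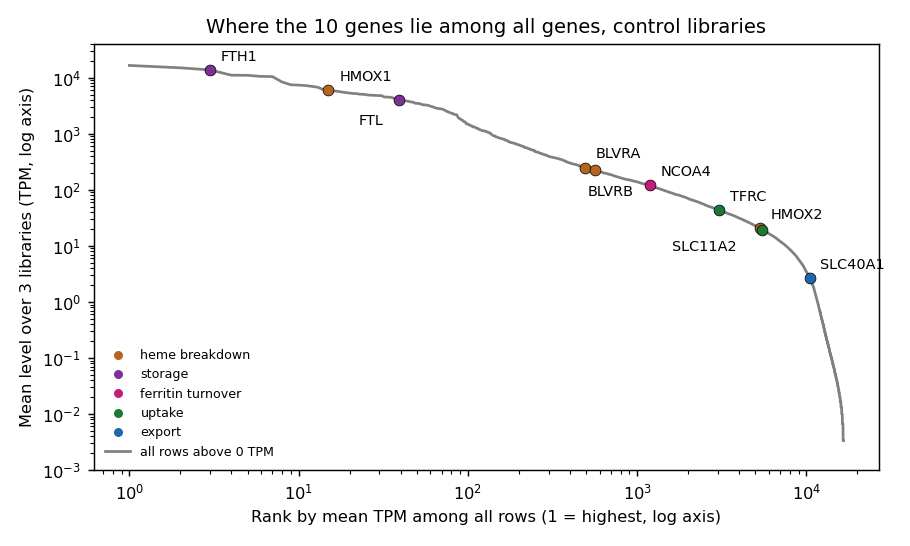
Mean TPM over 3 control libraries of every gene above 0 (grey line) against its rank, both on log axes, with the 10 members as points coloured by role. FTH1 (rank 3), HMOX1 (rank 15) and FTL (rank 39) lie among the most abundant messages, and SLC40A1 lies where the curve turns down.

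The ferritin turnover gene had a middle message level among the 10 members, and stood 17.4-fold above the median gene of the table. NCOA4, the receptor that delivers ferritin to lysosomes so that its iron is released (chromosome 10, 46005088 to 46030623), had 118.1, 122.8 and 117.8 TPM. The libraries differed by 1.04-fold at most, and its mean of 119.6 TPM ± 2.80 ranked 1190, between CHMP5 (119.7 TPM) and MRPS22 (119.5 TPM). FTH1 exceeded NCOA4 by 115-fold ± 10.7.

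Uptake genes were expressed far below the storage genes. TFRC, transferrin receptor 1 (chromosome 3, 196049284 to 196082090), had 46.7, 46.5 and 38.1 TPM and ranked 3040, next to FAM3C (43.8 TPM) and WDR25 (43.7 TPM). Replicate 3 was the low one, at -13.0% from the mean, and the other replicates were nearly equal. SLC11A2, the transporter DMT1 that moves iron out of the endosome (chromosome 12, 50952263 to 51028886), had 19.7, 19.5 and 19.3 TPM and ranked 5481. TFRC was higher than SLC11A2 in all 3 libraries, by 2.24-fold ± 0.232. The summed TPM of FTH1 and FTL exceeded that of TFRC and SLC11A2 by 248-fold, 269-fold and 336-fold, and replicate 3, high in storage and low in TFRC, gave the largest ratio.

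The export gene had the lowest message level. SLC40A1, ferroportin, the known iron exporter of vertebrate cells (chromosome 2, 189560590 to 189580786), had 2.83, 3.04 and 2.23 TPM, a mean of 2.70 TPM ± 0.420. It ranked 10424, so 60.7% of all genes were above it, and the neighbouring rows LOC107987004 and MAP7 had the same mean of 2.70 TPM. These levels rest on 110, 128.86 and 96 estimated reads. Exact Poisson 95% intervals, which cover counting error only, ran from 2.33 to 3.41 TPM, from 2.54 to 3.61 and from 1.81 to 2.72, so the interval of replicate 3 overlapped those of replicates 1 and 2.

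Within each library the TFRC message exceeded that of SLC40A1 by 16.5-fold, 15.3-fold and 17.1-fold, a log2 ratio of 4.02 ± 0.08. SLC11A2 exceeded SLC40A1 by 7.35-fold ± 1.16. From highest to lowest the order was FTH1, HMOX1, FTL, BLVRA, BLVRB, NCOA4, TFRC, HMOX2, SLC11A2 and SLC40A1, and the ranges over libraries did not overlap for any of the 9 neighbouring pairs. The narrowest steps were HMOX2 over SLC11A2 (1.06-fold) and BLVRA over BLVRB (1.12-fold, ratio of means). Counting intervals of BLVRA and BLVRB overlapped in replicate 1 (243.0 to 260.9 against 223.6 to 243.8 TPM), but not in replicates 2 and 3. For HMOX2 and SLC11A2 the counting intervals overlapped in every library (18.5 to 22.9 against 18.4 to 21.1 TPM in replicate 1), and the order of the pair turned with reads not divided by length, so these genes were not separated. A comparison between genes also depends on the length by which each was divided, which the libraries share, so their close agreement does not cover that part of the error.

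**Figure D3:**
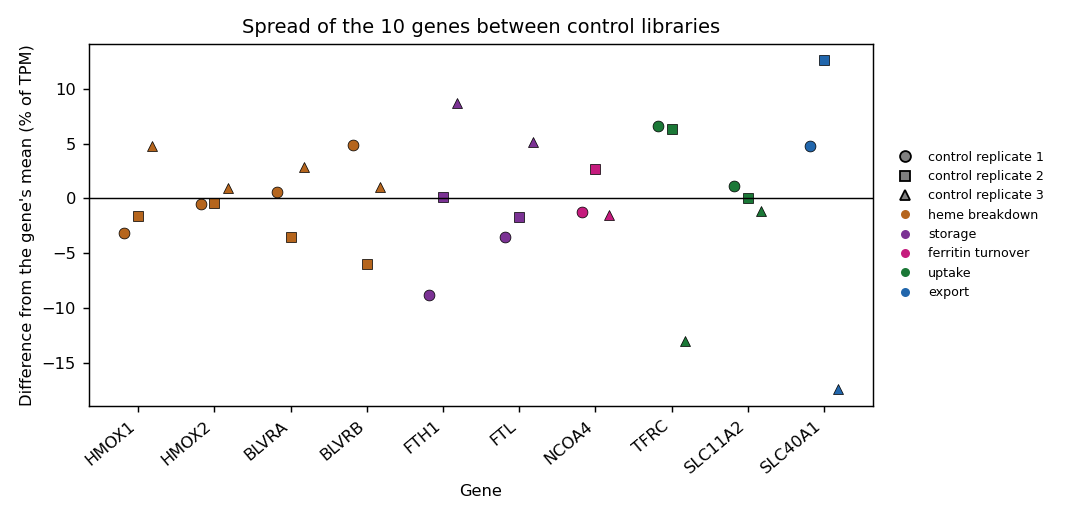
Difference of each control library from the gene's mean, in percent of TPM, for the 10 members (marker shape for the replicate, colour for the role). FTH1, HMOX1 and FTL are highest in replicate 3, whereas TFRC and SLC40A1 are lowest there, at -13.0% and -17.4%.

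Spread between libraries differed among the members. The coefficient of variation was under the 6.11% median of the 7577 genes with at least 10 TPM for 7 of the 9 members at that level. Against the 136 genes with at least 1000 TPM, whose median was 3.21% and 90th percentile 8.76%, HMOX1 (4.19%) and FTL (4.58%) lay above the median and FTH1 (8.78%) just above the 90th percentile. FTH1 and TFRC (11.2%) exceeded the 6.11% too, and SLC40A1, below 10 TPM, had 15.6%. Counting error of FTH1 and TFRC was 0.223% and 1.93%, well below that spread. FTH1, FTL, HMOX1 and HMOX2 were lowest in replicate 1 and highest in replicate 3, which is 4 of the 9 members against 16.1% of all genes at that level. For HMOX2 the spread of 0.795% was under its counting error of 5.12%, so its order is not resolved, and without it the count is 3 of the 9. NCOA4, TFRC and SLC11A2 were lowest in replicate 3, 3 of the 9 against 51.5% of all genes, and so was SLC40A1. For SLC11A2 too the spread (1.10%) was under the counting error (3.42%).

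Other genes of heme and iron metabolism were taken from 11 lists of 84 genes, of which 83 had a row. Of these 73 were detected, or 88.0%, against 66.5% of all genes in the table. That share of all genes belongs beside each list count given below. All 8 non-erythroid genes of heme synthesis were detected, and ALAS2, the erythroid form of the first enzyme, had 0 reads in every library, where a count of 0 allows up to 3 reads. The list median was 29.6 TPM ± 2.87. The highest was UROD, uroporphyrinogen decarboxylase (89.7 TPM ± 6.08). ALAS1, the housekeeping form of the first enzyme, had 58.6, 62.4 and 62.7 TPM, and FECH, which inserts iron into the ring, had 29.6 TPM ± 2.87. Every heme synthesis gene was below 100 TPM, whereas HMOX1 was at 6052 TPM. Among 9 heme transport and binding genes the median was 7.08 TPM ± 0.668 and 8 were detected, from PGRMC1 (180.1 TPM ± 6.34) down to the plasma heme scavenger HPX (0.0367 TPM ± 0.0321).

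Partners of the members were uneven. Other uptake genes had a list median of 2.43 TPM ± 0.155, and 7 of 10 were detected, close to the 66.5% of all genes. The zinc and iron transporter SLC39A14 was highest at 99.5 TPM ± 9.11, above TFRC, and the metalloreductase STEAP4 was lowest at 0.0533 TPM ± 0.0231. The cytosolic iron chaperones that load ferritin were abundant, with PCBP2 at 871 TPM ± 2.01 and PCBP1 at 653 TPM ± 33.3, whereas mitochondrial ferritin, FTMT, had 1 read in 1 library. Of the 4 genes in the export list, 0 were detected. The ferroxidase CP and HEPHL1 had 0 reads in all libraries, and HEPH had 0.070 TPM ± 0.0361 from 2, 3 and 5 reads. HAMP, a hormone that limits export rather than aiding it, had 0.153 TPM ± 0.133 from 1, 1 and 0 reads. These reads are too few to rank the genes. The 5 iron sensing genes passed 1 TPM in every library and had a median level of 22.7 TPM ± 1.22. The iron regulatory protein genes ACO1 and IREB2 had 19.5 TPM ± 1.64 and 20.3 TPM ± 3.45. SKP1, a subunit of the ubiquitin ligase that degrades IREB2, was highest at 96.2 TPM ± 0.839. FBXL5 and CUL1, the rest of that list, had 22.7 TPM ± 1.22 and 57.0 TPM ± 3.65, so the SKP1 level does not stand for the whole ligase.

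Genes known to control HMOX1 were detected in 6 of 6 cases, against 66.5% of all genes, and had a median of 54.0 TPM ± 4.17. NFE2L2 (NRF2), which activates it under oxidant stress, had 179.1 TPM ± 3.39, and KEAP1, which targets NFE2L2 for degradation, was the highest at 290.4 TPM ± 18.8. BACH1, the heme-sensing repressor of HMOX1, had 26.3, 21.6 and 19.4 TPM, highest in replicate 1 and lowest in replicate 3, as 51.5% of all genes with at least 10 TPM were lowest in replicate 3. MAFK, a small MAF partner, was the lowest at 8.26 TPM ± 0.591. Other NFE2L2 targets were detected in 13 of 13 cases, with a median of 157.8 TPM ± 3.48, from ABCC1 (28.1 TPM ± 2.02) to PRDX1 (802 TPM ± 25.8). HMOX1 exceeded PRDX1, the highest of these, by 7.55-fold ± 0.383, and the quinone reductase gene NQO1 (358.6 TPM ± 12.9) by 16.9-fold ± 0.702.

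**Figure D4:**
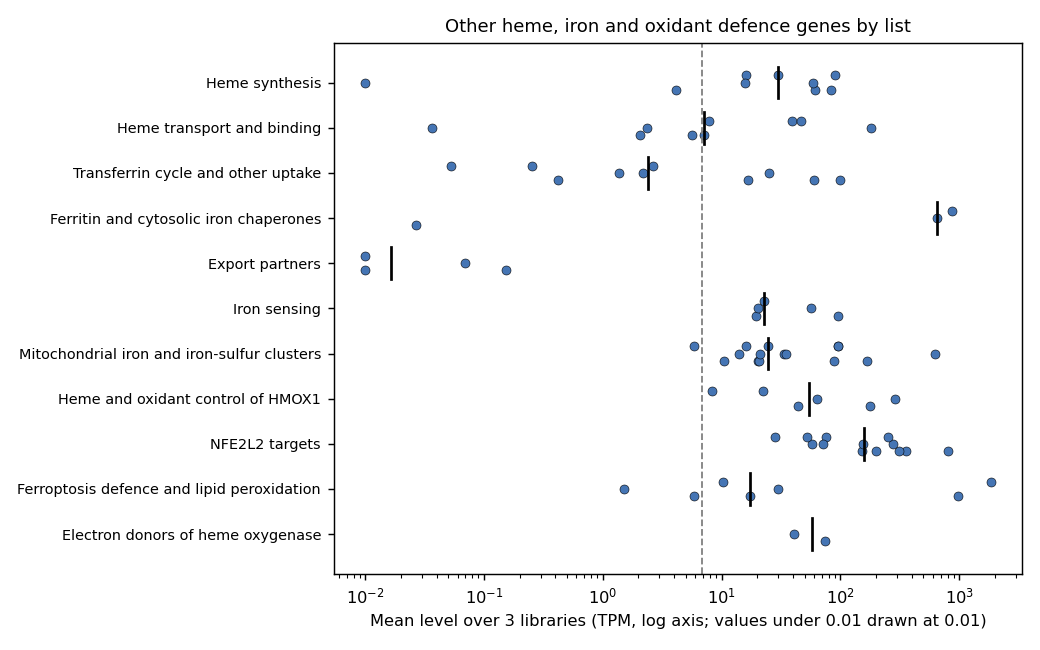
Mean TPM over 3 control libraries (log axis) of each gene in the 11 lists; black bars are list medians (mean of 3 library medians) and the dashed line is the median gene of the table. NFE2L2 targets lie mostly right of 50 TPM, and the 4 genes of the list drawn as export partners, which includes the export-limiting hormone HAMP, lie left of 0.2 TPM.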

How the data were processed

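Poly(A) RNA of NCI-H69 was sequenced on a DNBSEQ-T7 instrument, per the labels' protocols. Per the submitters' processing notes, the build was GRCh38 and the tools included HISAT2, StringTie and DESeq2, with no versions or roles. For the annotation release, filters and treatment of multiply mapped reads, nothing is given in the sources used here. Per the file headers, the 1 deposited table holds TPM, FPKM and read counts for each library. These deposited counts are estimated counts, since only 24.0% of values, or 16.4% of those above 0, are whole numbers within 1e-06 reads. TPM have a fixed total, so abundant genes lower all others. Columns were matched to samples by name. A further 12 columns of values match no sample label and were used in no step, and the planned knockout test was not made.

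From TPM the mean, SD and rank were computed for the 3 control libraries, and ratios were taken within each library. Detected means at least 1 TPM in all 3. Coefficients of variation are SD over mean. Counting intervals are exact Poisson on rounded reads. Pairs of libraries had Pearson correlations of 0.997 to 0.998 across genes on the log2(TPM + 1) scale, and their counts differed by more than sampling noise (chi-square per degree of freedom 6.18 to 15.8). The members and lists were chosen with earlier results of these data known. Named genes are the members, the highest and lowest gene of each list, NFE2L2, KEAP1, BACH1 and the rows next in level to HMOX1, FTH1, TFRC, SLC40A1 and NCOA4; other named genes were chosen after their values were seen. Some genes of the lists are not reported here by name and stay in the counts and medians. Alternatives were FPKM, reads not divided by length, TPM without ribosomal protein and MTRNR2L genes, other detection minimums, an added pseudocount, the ratio of means and each library left out. GENCODE release 29 gave transcripts and exons, and RefSeq (GRCh38.p14) gave gene positions and start windows. The scripts were tested on simulated data. Software was matplotlib 3.10.9, scipy 1.17.1, numpy 2.4.6 and pandas 2.3.3 under Python 3.11.15.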

Additional observations from a re-analysis of the deposited data

How the results depend on the processing

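No paired analysis was possible because the table has values for control samples alone under the stated names. With estimated reads not divided by length, the log2 ratios of HMOX1 to HMOX2, BLVRB to BLVRA, FTH1 to FTL and TFRC to SLC40A1 were 8.24, -0.63, 2.25 and 4.60, against 8.19, -0.17, 1.76 and 4.02, and FTH1 plus FTL took 1.11% of reads against 1.78% of TPM. With 1 TPM added, HMOX1 to HMOX2 was 8.12 and TFRC to SLC40A1 3.60. Without ribosomal protein and MTRNR2L genes, FTH1 plus FTL took 2.59% of TPM. Of 44 alternative values of these comparisons, 36 moved by less than the spread between libraries (for the count detected, by less than 1.5 times), 8 moved further and 0 changed direction. Part of this tally was fixed in advance. FPKM and leaving out ribosomal protein and MTRNR2L genes rescale whole libraries, so the ratios could not move beyond rounding. Leaving out a library cannot move a mean by the full SD between libraries, and shares and counts cannot change sign. Without each control replicate in turn these ratios were 8.16 to 8.21, -0.20 to -0.15, 1.73 to 1.80 and 3.99 to 4.07, and the storage share was 1.71% to 1.85%. With a minimum of 5 TPM, 9 of 10 members were detected. Relative to the median gene, 6 of the 10 members moved by over 1.5 times with reads not divided by length. The order then placed NCOA4 above BLVRA, TFRC above BLVRB and SLC11A2 above HMOX2. In the other 5 settings for which the order was computed it was as given. It could not change there, because those settings rescale or drop whole libraries and the ranges over libraries did not overlap.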

Other observations

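Genes of mitochondrial iron transport and iron-sulfur cluster assembly were detected in 15 of 15 cases, against 66.5% of all genes. Their list median was 24.7 TPM ± 0.200. HSPA9, the chaperone of cluster transfer, was highest at 626 TPM ± 7.61, and the scaffold gene ISCU had 169 TPM ± 16.4. Genes that limit or feed lipid peroxidation were detected in 7 of 7 cases, beside the same 66.5%, with a median of 17.3 TPM ± 1.40. SLC3A2, a subunit that the cystine transporter shares with other amino acid transporters, had 1859 TPM ± 38.3. SLC7A11, the other subunit of the cystine transporter, was listed with the NFE2L2 targets and had only 75.1 TPM ± 4.84. GPX4, which reduces lipid peroxides, had 970.0 TPM ± 70.8. AIFM2 (FSP1), a defence that acts apart from GPX4, was the lowest, with 1.47, 1.41 and 1.61 TPM.

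HBA1, an alpha globin gene, had 27.7, 31.8 and 40.7 TPM, whereas the beta globin gene HBB had 0, 0.13 and 0 TPM. HBA2 was given 2.68 TPM ± 0.400, and 81.6% of the 50-base windows of HBA1 also occur in HBA2, so the split between both genes is uncertain. MAFF, a small MAF gene, had 32.04, 42.0 and 58.06 TPM, a wider spread than that of any of the 10 members.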
